A study of Mus musculus with 21 samples.

Results

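The genes described here are 10 target genes of the transcription factor p53 that act in cell cycle arrest and apoptosis, namely Cdkn1a, Gadd45a, Ccng1, Mdm2, Bax, Bbc3, Fas, Eda2r, Phlda3 and Trp53inp1. They were chosen by symbol with earlier results of these data known. Each was found once under its plain symbol among the 48474 rows of the count table. All 10 passed the filter on low counts, beside 18248 genes tested in all. Bulk RNAseq was available from the neocortex of 21 mice, with 11 control mice labelled WT and 10 rNLS8 mice labelled TG. Neocortex is the tissue given in the labels, whereas the study's methods name cortex and a figure legend names hippocampus for rNLS8 mice. rNLS8 mice carry 2 transgenes, and a neurofilament heavy chain promoter drives a doxycycline-repressed activator that switches on human TDP-43 lacking its nuclear localization signal (TDP-43ΔNLS), nearly only in neurons. The controls were littermates with a single transgene, and the labels do not say which one. All mice of both groups had received 1 intracerebroventricular injection of 350 µg non-targeting antisense oligonucleotide (ASO) in 10 µL at an age of 17 to 19 weeks, stayed on doxycycline chow (200 mg/kg) for another 2 weeks, and were killed 3 weeks after the switch to chow without doxycycline. Both lines had been backcrossed to C57BL/6J, the labels do not tell the sex of a mouse, and the study's methods name only few litters for this line. The labels give batch A, with 4 WT and 3 TG mice, and batch B, with 7 WT and 7 TG mice, and the series' design text calls A and B independent cohorts.

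p53 is a transcription factor that is stabilized when DNA is damaged or ribosome assembly, replication or metabolism is disturbed. It then binds response elements near its target genes, which halt the cell cycle, repair DNA or start apoptosis, and it is held in check by Mdm2, a ubiquitin ligase that is itself a p53 target. In postmitotic neurons, p53 is best known for raising the BH3-only genes, whose proteins open the mitochondrial outer membrane through Bax and its relatives.

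A p53 response element is a pair of decamers with a fixed C and G at the core of each, and it reads the same on both strands. RefSeq start site windows (GRCm38.p6, from 250 bases before to 50 bases after each start) were found for 9 of the 10 genes, with 12 windows in all. The windows were searched for 2 adjacent decamers with at most 1 mismatch to the p53 consensus in 20 bases. Only 22 of all 32851 windows (0.067%) held such an element, and 2 of them belonged to the genes described here. They are shown because they belong to Cdkn1a and Ccng1, which changed in opposite directions, and the element is in capitals. The Cdkn1a window at chr17:29090729-29091028 on the plus strand spans its first start site, and the element ends 31 bases before that start site. The Ccng1 window is chr11:40755237-40755536 on the minus strand, and the element ends 175 bases before the start site.
Cdkn1a: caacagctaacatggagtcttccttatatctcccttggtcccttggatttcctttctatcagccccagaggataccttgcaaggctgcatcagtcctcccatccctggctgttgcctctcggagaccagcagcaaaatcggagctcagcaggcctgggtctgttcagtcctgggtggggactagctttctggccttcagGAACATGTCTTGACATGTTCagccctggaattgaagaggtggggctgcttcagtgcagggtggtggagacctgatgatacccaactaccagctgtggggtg
Ccng1: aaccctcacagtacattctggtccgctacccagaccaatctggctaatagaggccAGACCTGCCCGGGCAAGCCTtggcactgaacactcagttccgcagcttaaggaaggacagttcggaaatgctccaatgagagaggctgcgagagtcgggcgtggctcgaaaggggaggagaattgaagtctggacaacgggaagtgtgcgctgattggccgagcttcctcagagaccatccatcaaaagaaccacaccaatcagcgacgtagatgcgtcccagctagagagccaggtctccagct
A second Cdkn1a start site, 2790 bp further downstream, had no such element in its window, and the count table does not separate transcripts by start site. A single decamer that matched the consensus exactly was found in 2745 of all windows (8.36%). Counted by gene and not by window, it was found in 5 of the 9 genes, Cdkn1a, Ccng1, Gadd45a, Bax and Mdm2. These shares are not in the same unit. A match describes the letters in the window, and a window without one says nothing of elements elsewhere, such as in introns.

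Of the 10 genes, 6 rose and 1 fell in rNLS8 mice, with an adjusted p under 0.05 as the threshold (edgeR's quasi-likelihood test with batch as covariate, Benjamini-Hochberg adjustment over all 18248 genes). Many genes differed between the genotypes, with 4190 genes (23.0%) higher and 3964 genes (21.7%) lower in rNLS8 mice. The 6 higher genes were Eda2r, Cdkn1a, Bbc3, Phlda3, Fas and Trp53inp1, the lower gene was Ccng1, and Mdm2, Bax and Gadd45a did not pass the threshold. The median log2 fold change was 0.46 over the 10 genes and -0.000675 over all genes tested. Levels are given below as normalised read counts, that is, counts divided by the library's effective size (TMM) and scaled to the mean effective size. In bulk tissue, fewer cells of a type and less RNA per cell cannot be told apart.

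**Figure D1:**
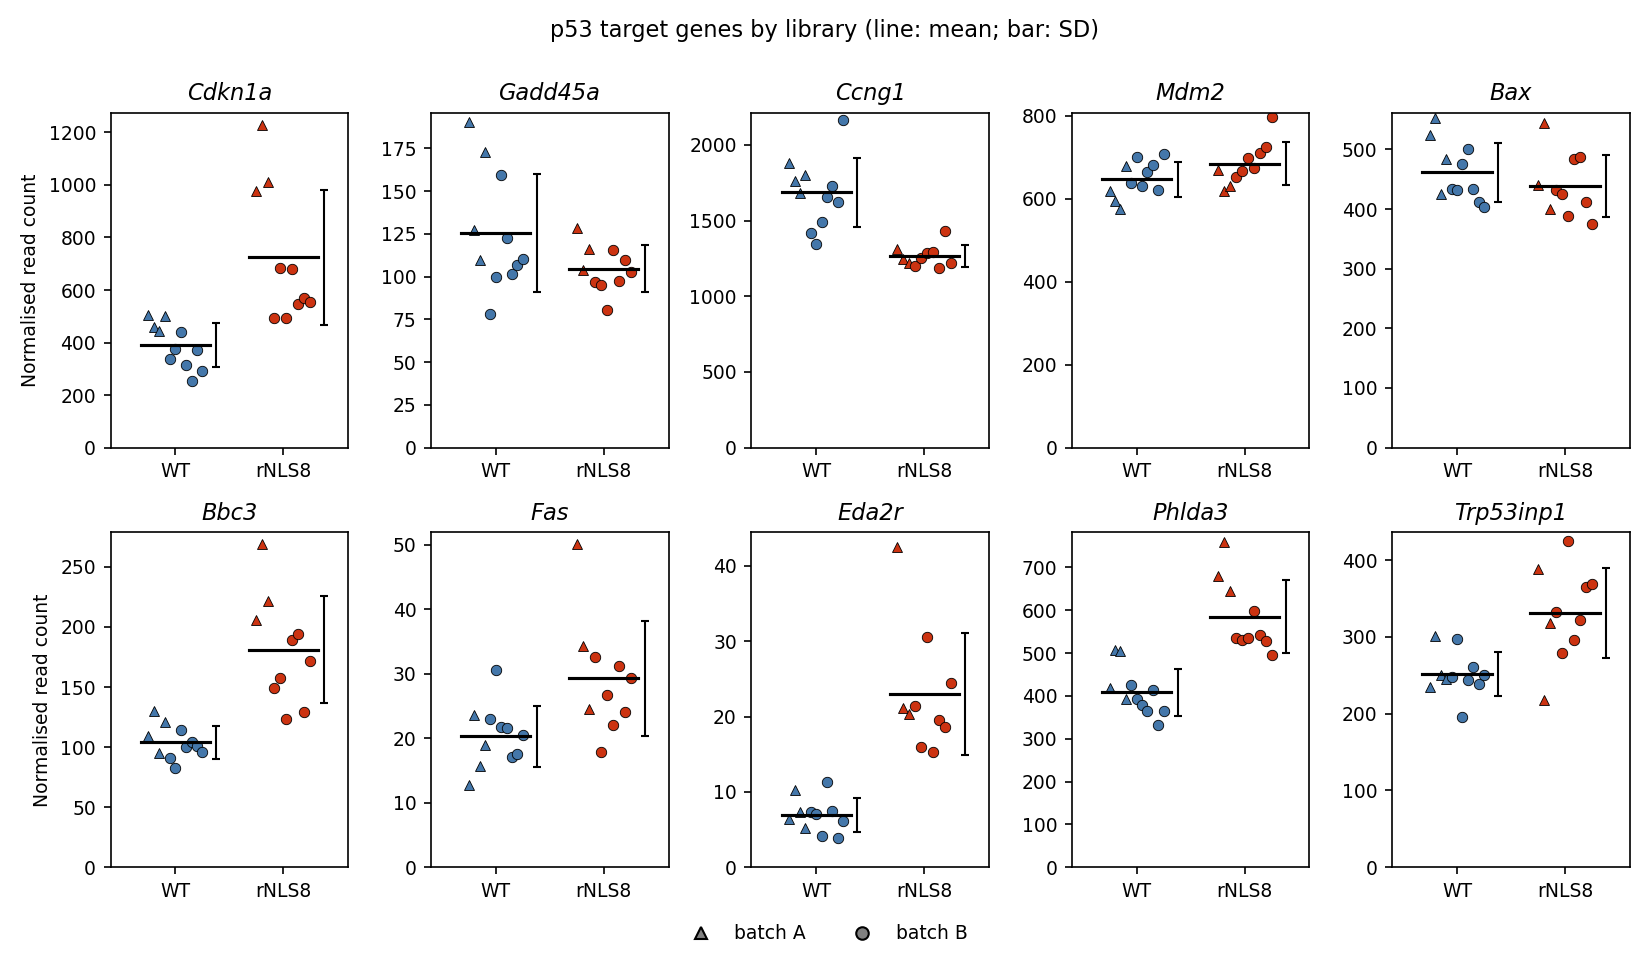
Normalised read counts (y axis, linear, from 0) of the 10 p53 target genes in each of the 11 WT and 10 rNLS8 libraries, with triangles for batch A, circles for batch B, a line at the mean and a bar for the SD. Eda2r is the gene whose groups do not overlap, with 3.92 to 11.3 in WT and 15.3 to 42.5 in rNLS8 mice, and Cdkn1a lies higher in batch A than in batch B within both genotypes.

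The libraries were similar in depth, with 20700912 to 22263809 counts in total. The Tardbp row served as the check of the genotype labels, although it lists the mouse gene and its count may hold reads of the human transgene. Its normalised count was 2574 ± 207 (SD, n = 11) in WT and 4109 ± 951 (SD, n = 10) in rNLS8 mice, and 9 of 10 rNLS8 libraries were above all WT libraries. The exception was the library labelled T61340_TG with 2363, which lies within the WT range of 2253 to 2827. Within batch A the log2 fold change of Tardbp was 0.26 (SE 0.12, adjusted p = 0.191), and within batch B it was 0.79 (SE 0.039, adjusted p = 1.42e-10), both from edgeR. T61340 also stood far from the other rNLS8 libraries in 1704 genes (9.34%) and T60303 in 381 genes (2.09%), by a gap test within the group, by comparison with 0.926% for T61342 and at most 0.438% for any library of batch B. The gap test pooled both batches, and these 3 libraries are all the rNLS8 libraries of batch A. Values without both T60303 and T61340, which leave 1 rNLS8 library in batch A, are given below for several genes.

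Among the genes of cell cycle arrest, Cdkn1a and Ccng1 changed in opposite directions. Cdkn1a (chr17:29090979-29100722) encodes p21, an inhibitor of cyclin-dependent kinases and the classical arrest target of p53. Its normalised count had a lowest value of 255, a median of 376 and a highest value of 505 in WT mice. In rNLS8 mice, the corresponding values were 495, 625 and 1227. 8 of 10 rNLS8 libraries were above all WT libraries, and T_69524 and T_69531 were just below the highest WT value. The mean was 390 ± 84.9 (SD, n = 11) in WT and 724 ± 257 (SD, n = 10) in rNLS8 mice, a 1.86-fold increase (log2 fold change 0.90, SE 0.090, edgeR adjusted p = 1.79e-08). Batch A was higher than batch B in both genotypes. In batch A, WT libraries ranged from 443 to 505, and the 3 rNLS8 libraries had 978, 1012 and 1227. In batch B, WT libraries ranged from 255 to 440 and rNLS8 libraries from 495 to 685. The groups did not overlap within either batch. Without T60303 and T61340, the log2 fold change of Cdkn1a was 0.82 (edgeR adjusted p = 1.91e-07).

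The table also held a second row for Cdkn1a with a copy suffix, Cdkn1a-2, whose meaning is not given in the sources used here. It moved the same way, from 150 ± 47.3 (SD, n = 11) in WT to 267 ± 135 (SD, n = 10) in rNLS8 mice (log2 fold change 0.85, SE 0.13, edgeR adjusted p = 8.25e-06). Its groups overlapped more, with 5 of 10 rNLS8 libraries above all WT libraries.

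Ccng1 (chr11:40748552-40755309) encodes cyclin G1, a strongly p53-induced cyclin that recruits a phosphatase to Mdm2. It was the gene with the highest level per length of exon among the 10, with a mean of 480 normalised counts per kb in WT mice. WT mice had normalised Ccng1 counts of 1342, 1682 and 2163 (lowest, median, highest), and rNLS8 mice had 1188, 1248 and 1429. 9 of 10 rNLS8 libraries were below all WT libraries, and T_70263 was the exception. The mean fell from 1686 ± 228 (SD, n = 11) to 1265 ± 70.6 (SD, n = 10), a 0.753-fold level (log2 fold change -0.41, SE 0.063, edgeR adjusted p = 1.03e-05). It was lower in both batches, with -0.48 in batch A and -0.37 in batch B on the log2 scale (edgeR adjusted p = 0.0106 and 0.00157). Ccng1 was thus one of the 2 genes with a match to the p53 consensus in the window searched. It was lower while Cdkn1a was higher, and binding of p53 was not tested.

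Gadd45a (chr6:67035096-67037407) encodes a small stress protein that binds PCNA and p21 and takes part in DNA repair and the block at the transition to mitosis. For Gadd45a, normalised counts were 78.3, 110 and 190 (lowest, median, highest) in WT mice, and 80.3, 103 and 129 in rNLS8 mice. All rNLS8 libraries lay within the WT range, which was wide. The mean was 125 ± 34.5 (SD, n = 11) in WT and 105 ± 13.5 (SD, n = 10) in rNLS8 mice, and the difference did not pass the threshold (log2 fold change -0.23, SE 0.11, edgeR adjusted p = 0.103). Leaving out the WT library T_69523, which had the lowest WT value, brought it past the threshold (log2 fold change -0.28, edgeR adjusted p = 0.0382).

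Mdm2 (chr10:117688875-117710758), which closes the feedback loop by marking p53 for degradation, differed little. Normalised Mdm2 counts were 575, 637 and 707 (lowest, median, highest) in WT mice, and 618, 672 and 796 in rNLS8 mice. Only 3 of 10 rNLS8 libraries were above all WT libraries. The mean was 647 ± 43.2 (SD, n = 11) in WT and 684 ± 51.6 (SD, n = 10) in rNLS8 mice (log2 fold change 0.07, SE 0.043, edgeR adjusted p = 0.168). Scaling by library size alone, which moved the median of all genes to 0.0757 on the log2 scale, gave 0.15 and an adjusted p of 0.00574.

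Among the genes of apoptosis, the BH3-only gene and the membrane receptors rose, and Bax did not pass the threshold. Bbc3 (chr7:16308398-16318334) encodes Puma, a BH3-only protein that neutralizes the survival proteins of the Bcl-2 family. Its normalised count was 82.5, 101 and 130 (lowest, median, highest) in WT mice, and 123, 180 and 269 in rNLS8 mice. 8 of 10 rNLS8 libraries were above all WT libraries, and the groups did not overlap within either batch. The mean rose from 104 ± 13.9 (SD, n = 11) to 181 ± 44.7 (SD, n = 10), a 1.75-fold increase (log2 fold change 0.81, SE 0.093, edgeR adjusted p = 1.63e-07). The log2 fold change of Bbc3 was 1.05 in batch A and 0.69 in batch B (edgeR adjusted p = 0.00261 and 5.96e-05).

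Bax (chr7:45461695-45466903) encodes the pore-forming protein on which Puma acts. Normalised counts of Bax were 403, 433 and 553 (lowest, median, highest) in WT mice, and 374, 429 and 544 in rNLS8 mice. The groups overlapped, with 3 of 10 rNLS8 libraries below all WT libraries, and the means of 462 ± 49.0 (SD, n = 11) and 439 ± 52.3 (SD, n = 10) did not differ beyond their spread (log2 fold change -0.06, SE 0.064, edgeR adjusted p = 0.448). The sign of this small difference turned under scaling by library size alone, with 0.01 (adjusted p = 0.891).

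Eda2r (chrX:97333837-97377234) encodes a receptor of the tumor necrosis factor family for the ligand ectodysplasin A2 and was the most changed of the 10 genes. It was also the lowest per length, with 1.18 normalised counts per kb in WT and 3.91 in rNLS8 mice. Its normalised count was 3.92, 7.13 and 11.3 (lowest, median, highest) in WT mice, and 15.3, 20.8 and 42.5 in rNLS8 mice. All 10 rNLS8 libraries were above all WT libraries, which 703 of all genes tested (3.85%) also were. The mean rose from 6.98 ± 2.27 (SD, n = 11) to 23.0 ± 8.12 (SD, n = 10), a 3.30-fold increase (log2 fold change 1.72, SE 0.20, edgeR adjusted p = 1.90e-07). The raw counts behind these values were small, with 4 to 11 in WT and 16 to 45 in rNLS8 libraries. The highest value came from T60303, and without T60303 and T61340 the log2 fold change was 1.57 (edgeR adjusted p = 1.48e-06).

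Fas (chr19:34290647-34327775) encodes the death receptor for Fas ligand. Fas was low, with normalised counts of 12.8, 20.6 and 30.5 (lowest, median, highest) in WT mice, and 17.9, 28.1 and 50.1 in rNLS8 mice. 4 of 10 rNLS8 libraries were above all WT libraries. The mean was 20.3 ± 4.74 (SD, n = 11) in WT and 29.3 ± 8.89 (SD, n = 10) in rNLS8 mice, a 1.44-fold increase (log2 fold change 0.53, SE 0.17, edgeR adjusted p = 0.0121). The call held when any 1 library was left out (highest edgeR adjusted p 0.0367), but was lost in each batch alone. In batch A the log2 fold change was 1.05 (edgeR adjusted p = 0.0569), with 12.8 to 23.6 in WT libraries and 24.5, 34.3 and 50.1 in the 3 rNLS8 libraries. In batch B it was 0.26 (edgeR adjusted p = 0.234), and without T60303 and T61340 it was 0.31 over all other libraries (edgeR adjusted p = 0.115).

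Phlda3 (chr1:135766085-135769134) encodes a pleckstrin homology domain protein that competes with Akt for membrane lipids and so dampens a survival signal. Across libraries, Phlda3 had normalised counts of 333, 394 and 506 (lowest, median, highest) in WT mice, and 496, 539 and 761 in rNLS8 mice. 9 of 10 rNLS8 libraries were above all WT libraries, T_70267 being the exception, and the groups did not overlap within either batch. The mean rose from 409 ± 55.1 (SD, n = 11) to 585 ± 84.5 (SD, n = 10), a 1.45-fold increase (log2 fold change 0.53, SE 0.055, edgeR adjusted p = 3.13e-08). The log2 fold change was 0.63 in batch A and 0.49 in batch B (edgeR adjusted p = 0.0105 and 2.47e-06).

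Trp53inp1 (chr4:11156441-11174379) encodes a stress protein that promotes phosphorylation of p53 and takes part in autophagy. The Trp53inp1 row had normalised counts of 196, 247 and 301 (lowest, median, highest) in WT mice, and 218, 327 and 425 in rNLS8 mice. 7 of 10 rNLS8 libraries were above all WT libraries, and the lowest rNLS8 value belonged to T61340. The mean rose from 251 ± 28.8 (SD, n = 11) to 331 ± 59.2 (SD, n = 10), a 1.31-fold increase (log2 fold change 0.39, SE 0.092, edgeR adjusted p = 0.00117). It passed the threshold in batch B with 0.45 (edgeR adjusted p = 0.00106) and not in batch A with 0.28 (edgeR adjusted p = 0.361).

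**Figure D2:**
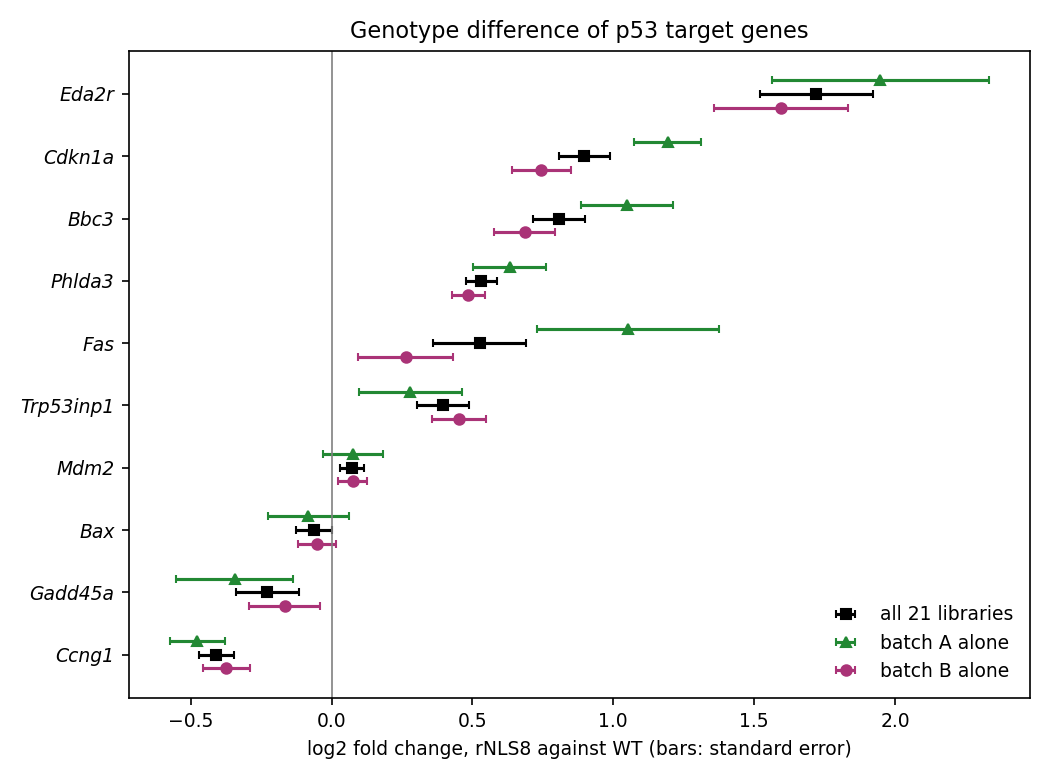
Log2 fold change of rNLS8 against WT mice (x axis) with its standard error for each of the 10 p53 target genes (y axis), from the fit over all 21 libraries with batch as covariate (squares), batch A alone (triangles) and batch B alone (circles). Eda2r lies highest at 1.72 and Ccng1 lowest at -0.41, and every gene has the same sign in both batches.

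The sign of the log2 fold change was the same in both batches for all 10 genes. Tested alone, batch A had 4 of the 10 genes higher, against 6.99% of all genes, and 1 lower, against 4.83%. Batch B had 5 higher, against 19.3% of all genes, and 1 lower, against 19.8%. Cdkn1a, Bbc3, Phlda3 and Eda2r were above WT without overlap within batch A and within batch B, as were 5.70% of all genes. None of the 10 genes was below WT without overlap in both batches, where 5.57% of all genes were, since Ccng1 overlapped in batch B. When all libraries were set side by side, none was below WT without overlap either, against 3.80% of all genes. The difference between the batches was tested as an interaction, and 0 of the 10 genes passed after adjustment in edgeR and in DESeq2. Over all genes tested, 0 passed in edgeR and 1 in DESeq2, so this count does not set the 10 genes apart. At an unadjusted p under 0.05, edgeR called Cdkn1a (difference of log2 fold changes, batch B minus A, -0.42, p = 0.0248) and Fas (-0.76, p = 0.0283), each with an adjusted p of 0.853, while 5.64% of all genes were called at that level.

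Within the rNLS8 group, no library was extreme in the same way for all genes. T61340 had the highest value of the group for 4 genes and the lowest for 2, and T60303 had the highest for 3. The largest number of genes above all WT libraries, 7, was found in T_70261 of batch B.

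The p53 gene itself rose. Trp53 had normalised counts of 290, 354 and 422 (lowest, median, highest) in WT mice, and 397, 467 and 582 in rNLS8 mice. 9 of 10 rNLS8 libraries were above all WT libraries. The log2 fold change was 0.43 (SE 0.064, edgeR adjusted p = 5.92e-06), with 0.52 in batch A and 0.40 in batch B. RNA level does not give the level or activity of the protein, which is regulated largely by its stability. In a list of p53 and its regulators, 21 of 22 genes were tested, 5 were higher and 2 were lower, where 23.0% of all genes were higher and 21.7% lower, and the median log2 fold change was 0.01. The higher count is close to that background. Mdm4, the partner of Mdm2 that masks the activation domain of p53, was higher by 0.26 (SE 0.093, edgeR adjusted p = 0.0226), but not without T60303 (0.21, edgeR adjusted p = 0.0686). Rpl11 and Rpl5, ribosomal proteins that bind Mdm2 when ribosome assembly fails, rose by 0.53 and 0.24 on the log2 scale (edgeR adjusted p = 1.71e-07 and 0.000788), and Rpl11 was higher in 10 of 10 rNLS8 libraries than in any WT library. The fifth higher gene was Chek1, a checkpoint kinase at low counts, with 14.5 ± 5.29 (SD, n = 11) in WT and 23.7 ± 5.83 (SD, n = 10) in rNLS8 mice (log2 fold change 0.68, edgeR adjusted p = 0.00132), named after its values were seen. Usp7, a deubiquitinase that stabilizes Mdm2 and p53, and Cop1, another ubiquitin ligase of p53, fell by 0.29 and 0.26 on the log2 scale (edgeR adjusted p = 3.73e-07 and 2.14e-05). The phosphatase gene Ppm1d had a log2 fold change of -0.02 (adjusted p = 0.802), and the p53 relatives Trp63 and Trp73 had -0.20 (adjusted p = 0.417) and -0.04 (adjusted p = 0.913), none of which passed edgeR's test and all of which turned sign under some alternative settings.

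Of 40 other known p53 targets, 37 were tested, 11 were higher and 3 were lower, with a median log2 fold change of 0.12. Over all genes tested, 23.0% were higher and 21.7% lower, so the count of higher genes alone does not set this list apart. Sesn2, which encodes a stress-induced inhibitor of mTORC1, was the most changed of them. Its normalised count was 217, 249 and 310 (lowest, median, highest) in WT mice, and 459, 576 and 826 in rNLS8 mice. The groups did not overlap, and the log2 fold change was 1.24 (SE 0.074, edgeR adjusted p = 3.75e-12). Aen, an exonuclease of apoptosis, rose by 0.59 on the log2 scale (SE 0.052, edgeR adjusted p = 1.88e-09), and its 10 rNLS8 libraries were above all WT libraries. Pmaip1, which encodes the BH3-only protein Noxa, rose from 56.0 ± 8.36 (SD, n = 11) to 73.4 ± 14.5 (SD, n = 10) normalised counts (log2 fold change 0.39, edgeR adjusted p = 0.00557), with 0.20 in batch B alone (edgeR adjusted p = 0.158). Fdxr, the mitochondrial ferredoxin reductase, and Triap1, an inhibitor of apoptosis, had log2 fold changes of 0.28 and 0.27 (edgeR adjusted p = 0.0154 and 0.00263). Without T60303 and T61340, Fdxr did not pass (edgeR adjusted p = 0.0557), although its log2 fold change was 0.245, near the 0.28 over all libraries. In that setting 8 of the other targets were higher, against 11 over all libraries. Over all genes tested, 3942 were higher in that setting, against 4190, so the count of 8 alone does not set this list apart. The 3 lower genes, named after their values were seen, were Zmat3 (-0.18, edgeR adjusted p = 0.00329), Plk2 (-0.18, edgeR adjusted p = 0.00663) and Pvt1 (-0.23, edgeR adjusted p = 0.00224).

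Start site windows were found for 30 of these targets, and those of 2 held a match to the response element as defined above, Rps27l and Gtse1. They are shown because both genes were higher in rNLS8 mice, like Cdkn1a and unlike Ccng1. The Rps27l element lies at chr9:66946296-66946315 on the plus strand, 97 bases before the start site of its window. The Gtse1 element lies at chr15:85859945-85859964 on the plus strand and spans the start site of its window. Both elements lie inside the annotated gene, which begins at chr9:66944624 for Rps27l and at chr15:85859691 for Gtse1, and not upstream of it.
Rps27l: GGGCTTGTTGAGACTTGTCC
Gtse1: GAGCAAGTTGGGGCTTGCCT
Rps27l, a ribosomal protein paralog, had normalised counts of 141 ± 18.0 (SD, n = 11) in WT and 182 ± 30.6 (SD, n = 10) in rNLS8 mice (log2 fold change 0.37, SE 0.094, edgeR adjusted p = 0.00226). Gtse1, a cycle gene named here for its element, had 8.87 ± 3.90 (SD, n = 11) in WT and 16.2 ± 6.90 (SD, n = 10) in rNLS8 mice (log2 fold change 0.91, SE 0.25, edgeR adjusted p = 0.00479).

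**Figure D3:**
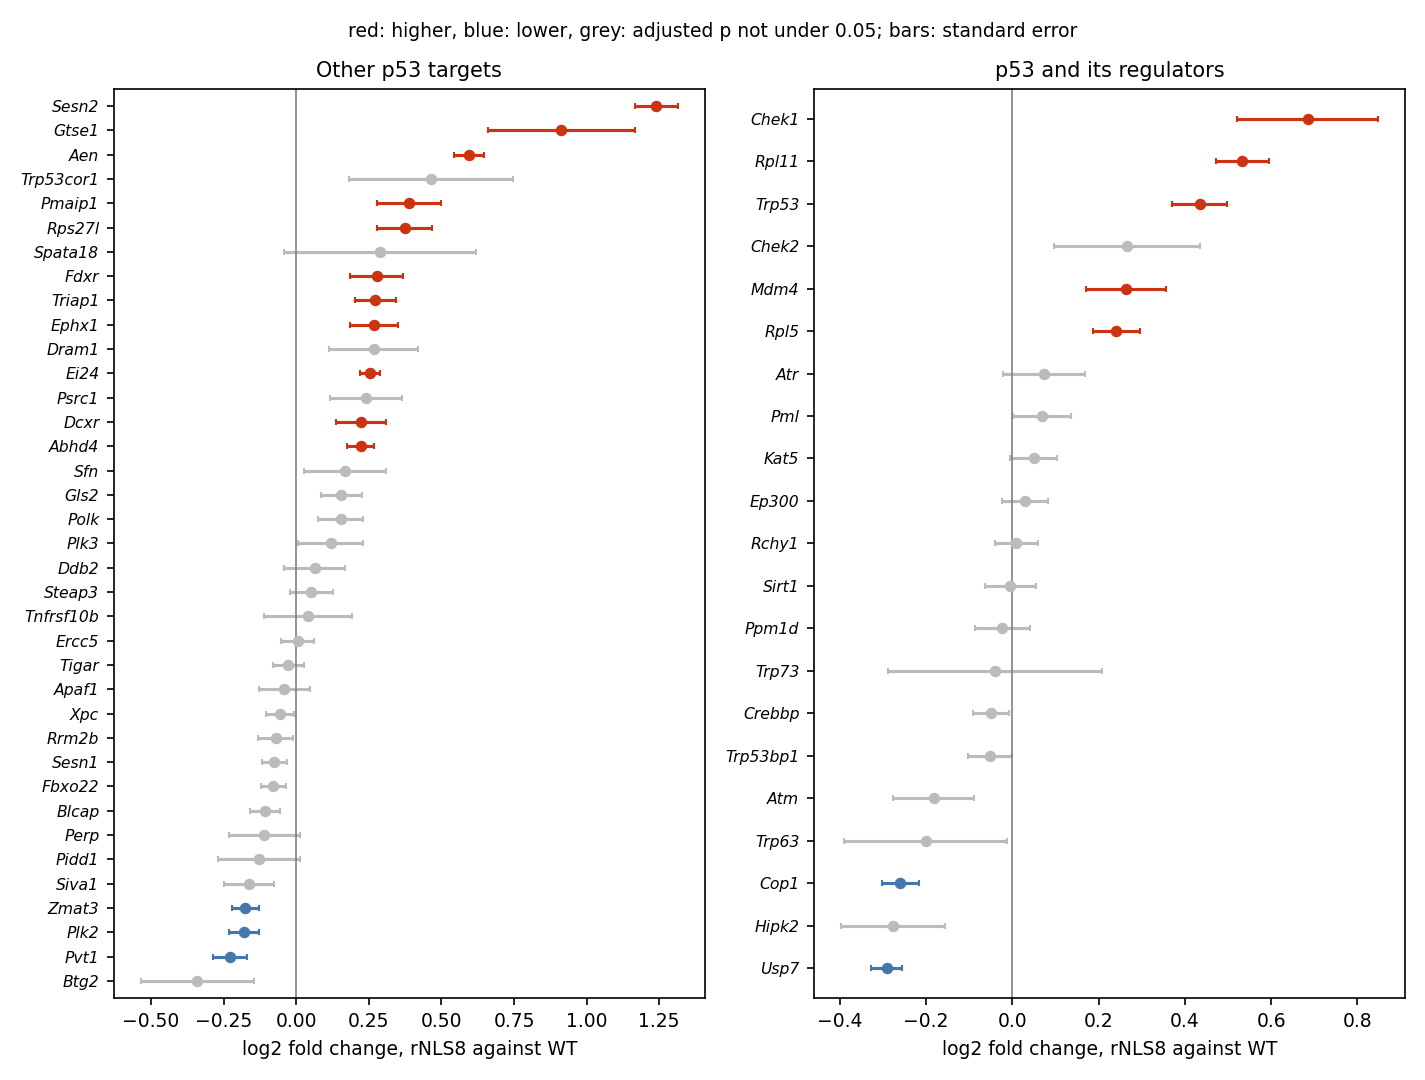
Log2 fold change of rNLS8 against WT mice (x axis) with its standard error for 37 other p53 targets (left) and for 21 genes of p53 and its regulators (right), one gene per row of the y axis, with red for higher, blue for lower and grey for genes that did not pass. Sesn2 stands apart on the left with 1.24, and Trp53 is among the higher genes on the right with 0.43.

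Of the apoptosis machinery, 7 of 24 tested genes were higher and 5 lower, near the shares over all genes (23.0% and 21.7%), and the median log2 fold change was 0.03. Bid, a BH3-only protein that carries death receptor signals to the mitochondria, had 106, 148 and 181 normalised counts (lowest, median, highest) in WT mice, and 281, 333 and 393 in rNLS8 mice. The groups did not overlap (log2 fold change 1.19, SE 0.080, edgeR adjusted p = 2.33e-11), and its copy row Bid-2 gave 1.10. Bok, a relative of Bax, rose by 0.65 and Tnfrsf1a, the receptor 1 of tumor necrosis factor, by 0.36 (edgeR adjusted p = 2.01e-07 and 0.00170). In contrast, the neuronal BH3-only gene Hrk fell by 0.62 on the log2 scale (SE 0.073, edgeR adjusted p = 2.30e-07), with 10 of 10 rNLS8 libraries below all WT libraries. Tradd, the adaptor of Tnfrsf1a, and Xiap, an inhibitor of caspases, fell by 0.35 and 0.33 on the log2 scale (edgeR adjusted p = 0.00264 and 0.00141).

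Among cyclins and cycle genes, 5 of 16 tested genes were higher and 2 were lower, beside 23.0% and 21.7% of all genes, with a median log2 fold change of 0.10. These counts are too small to be read as a result about cycle genes. The kinase gene Cdk4 and the cyclin gene Ccne2, whose proteins p21 inhibits in their complexes, rose by 0.25 and 0.53 (edgeR adjusted p = 8.54e-05 and 1.20e-05). Rbl2, a retinoblastoma relative, rose by 0.14 (edgeR adjusted p = 0.00625). The other 2 higher genes, the proliferation genes Mki67 and Top2a, were at low counts and were named after their values were seen. Mki67 had 19.6 ± 9.54 (SD, n = 11) in WT and 37.1 ± 8.46 (SD, n = 10) in rNLS8 mice (edgeR adjusted p = 0.000567), and Top2a had 20.9 ± 6.31 and 35.5 ± 7.34 (edgeR adjusted p = 0.000636). Ccnd1, cyclin D1, and Pcna, the sliding clamp that p21 and Gadd45a bind, fell by 0.42 and 0.21 on the log2 scale (edgeR adjusted p = 2.54e-06 and 0.000278).

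**Figure D4:**
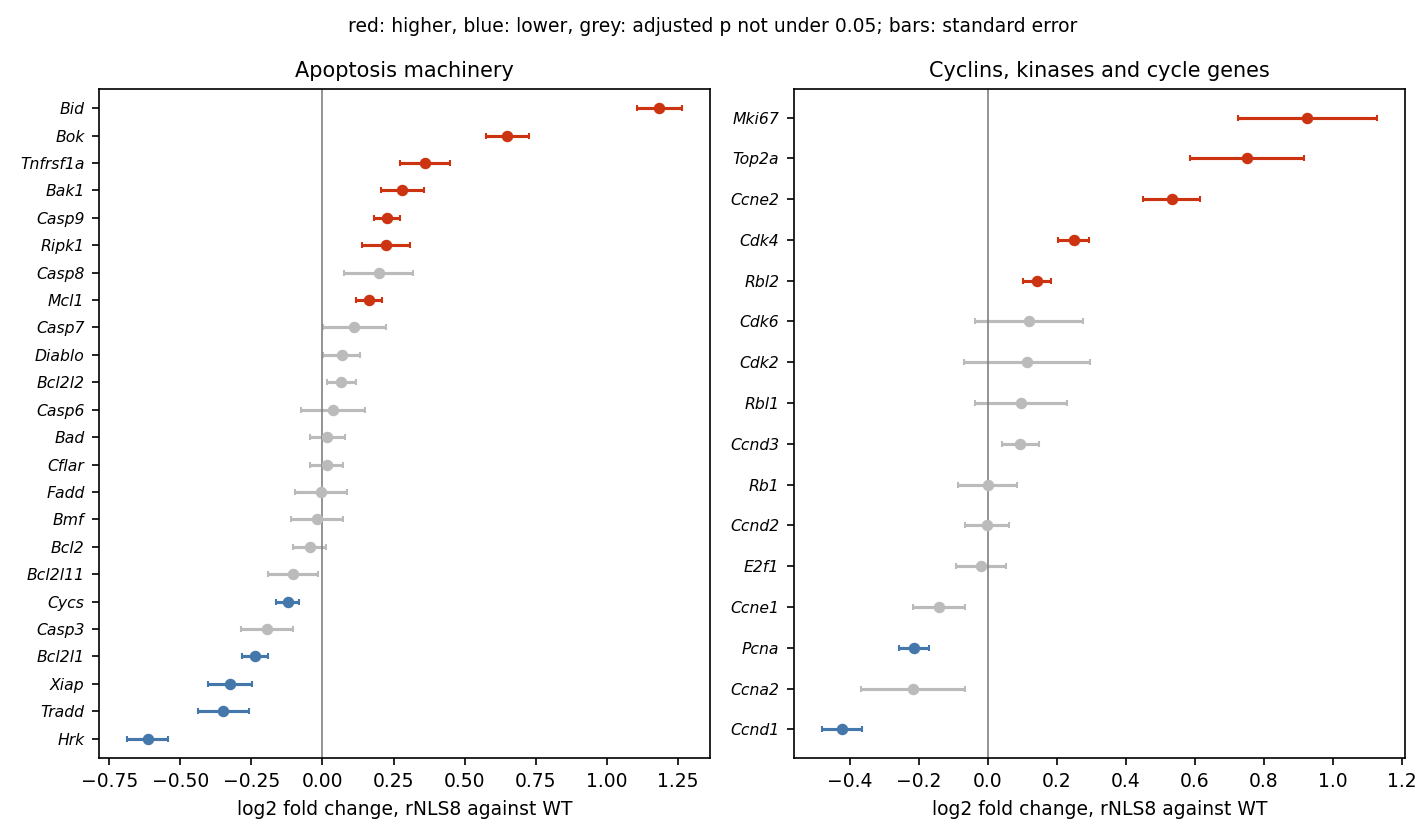
Log2 fold change of rNLS8 against WT mice (x axis) with its standard error for 24 genes of the apoptosis machinery (left) and 16 cyclins, kinases and cycle genes (right), one gene per row of the y axis, with red for higher, blue for lower and grey for genes that did not pass. Bid at 1.19 and Hrk at -0.62 are the ends of the left panel.

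The paralogs of the 10 genes did not move as the genes themselves did in every case. Of 9 tested paralogs, 3 were higher and 3 were lower, with a median log2 fold change of -0.16, and 23.0% and 21.7% of all genes were higher and lower. With so few genes, these counts do not set the paralogs apart. Gadd45g, a stress gene like Gadd45a, rose from 175 ± 37.9 (SD, n = 11) to 278 ± 80.2 (SD, n = 10) normalised counts (log2 fold change 0.69, SE 0.10, edgeR adjusted p = 4.44e-06), while Gadd45a did not pass. The third family member, Gadd45b, had 0.28 with an adjusted p of 0.0325 in edgeR, and its call was lost in 14 of the alternative settings, among them without T60303 and T61340 (0.22, edgeR adjusted p = 0.136). Cdkn1b, which encodes the inhibitor p27, fell by 0.16 on the log2 scale (edgeR adjusted p = 0.0119), whereas Cdkn1a rose. The call of Cdkn1b was lost under scaling by library size alone (-0.09, adjusted p = 0.205) and in batch B alone (-0.13, edgeR adjusted p = 0.0624). Ccng2, the gene of cyclin G2, fell by 0.39 (edgeR adjusted p = 1.01e-06) with 10 of 10 rNLS8 libraries below all WT libraries, as Ccng1 did in 9 of 10. Relt, a receptor of the same family as Eda2r and Fas, rose by 0.42 (edgeR adjusted p = 7.51e-06). Phlda1 fell by 0.27 on the log2 scale (edgeR adjusted p = 0.00767). It passed in neither batch alone, with -0.35 in batch A and -0.23 in batch B (edgeR adjusted p = 0.139 and 0.0568). Trp53inp2 had -0.18 and did not pass (edgeR adjusted p = 0.0616), but passed in DESeq2 with batch (adjusted p = 0.0487) and without WT T61334, WT T_70262 or TG T_70267 (edgeR adjusted p = 0.0446, 0.0447 and 0.0324).

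Markers of cell types moved with the genotype. Of 8 neuronal markers, 6 were lower, and their summed normalised count ranged from 116779 to 145995 in WT and from 86714 to 114313 in rNLS8 libraries, without overlap. Snap25 led with a log2 fold change of -0.75 (edgeR adjusted p = 1.13e-11), while Rbfox3 and Slc17a7 did not pass. Of 7 microglial markers, 4 were higher and 1, P2ry12, was lower, and their sum ranged from 7151 to 8214 in WT and from 7500 to 10303 in rNLS8 libraries. Of 6 astrocytic markers, Gfap rose with a log2 fold change of 1.03 (edgeR adjusted p = 4.97e-08) and 4 were lower, and their sum overlapped, with 41672 to 53309 in WT and 38712 to 56813 in rNLS8 libraries. The 6 oligodendrocytic markers did not pass in either direction. Markers of the neocortex were present in all libraries, with summed counts of 9112 to 12188 in WT and 7284 to 9547 in rNLS8 libraries. Of 6 T cell markers, Cd3e, Cd3d, Cd3g and Cd8a averaged under 2 normalised counts in both groups and Trac averaged 5.51 in WT and 6.51 in rNLS8 mice. Cd4, which other cells express as well, was the only one tested and was lower, with 174 ± 99.3 (SD, n = 11) in WT and 81.4 ± 43.3 (SD, n = 10) in rNLS8 mice (log2 fold change -1.24, edgeR adjusted p = 0.00345). The part of these shifts in the changes of the p53 targets was not tested.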

How the data were processed

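mRNA libraries of the neocortex of each mouse were sequenced paired-end. The authors aligned the reads to GRCm38. Their deposited table holds raw counts in rows named by gene symbol. The submitters' processing notes name HISAT, HISAT2, Bowtie, Bowtie2 and RSEM without roles, and the counter's settings are not given in the sources used here. Of 48474 rows, 13329 had no count. Another 2553 rows were copies of a symbol with a suffix and held 4.11% of the deposited counts.

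Counts were analyzed with edgeR 4.0.16 in R 4.3.3: filterByExpr by genotype (minimum count 10, minimum total 15), TMM, and the quasi-likelihood test with genotype and batch on 21 libraries, adjusted over 18248 genes at 0.05. Groups and batches came from the labels, and each library is a separate mouse. The scripts were tested on simulated data. DESeq2 1.42.0, other scalings and filters, each batch alone, a sex covariate (Xist), and leaving out libraries were alternatives. Leaving out T60303 with T61340 and summing copy rows were chosen after seeing the data. Libraries that stood apart were found by Dixon's gap test on log2 values (pseudocount 0.5). Exon lengths came from GENCODE's union of exons, and promoter windows from RefSeq.

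The 10 genes and the lists were chosen with earlier results of these data known. All 10 were named, Trp53, Mdm4, Trp63, Trp73, Ppm1d and 5 paralogs always, and of each other list at most 6 genes called and averaging 50 or more counts, taken by size of change. Exceptions are marked in the text. Lists are described by counts and medians, without a test of the list. Libraries held 20700912 to 22263809 counts.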

Additional observations from a re-analysis of the deposited data

Results flagged for a closer look

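Among the 10 rNLS8 libraries, T61340 stood apart for 3 genes by Dixon's gap test on log2 normalised counts, in which the gap to the nearest library is divided by the range of the group. The values were 0.579 for Mdm4, where T61340 was the lowest library, 0.675 for Xiap, where it was also the lowest, and 0.807 for Relt, where it was the highest. 46 results were searched, and chance would flag about 2.3 of them, 1 in 20. None of the 10 p53 target genes was among them. T61340 stood far from its group in 9.34% of all genes tested, so these counts set neither the 3 genes nor the 10 genes apart. T61340 is also the rNLS8 library whose Tardbp count lies within the WT range.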

How the results depend on the processing

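No paired analysis was possible because the mouse numbers are not shared between the groups. Batch A alone, with 7 libraries, gave 1298 genes higher and 897 lower, and 4 other p53 targets higher and 0 lower. It lost, with no change of direction, the calls of Trp53inp1, Fas, Mdm4, Gadd45b, Cdkn1b, Usp7, Cop1, Rpl5, Rps27l, Fdxr, Triap1, Tnfrsf1a, Tradd, Xiap, Ccne2, Cdk4, Pcna, Rbl2, Phlda1, Chek1, Mki67, Top2a, Gtse1, Zmat3, Plk2 and Pvt1 among the genes named from the lists. Scaling by library size alone gave 5832 genes higher and 2752 lower, against 4190 and 3964, 1 other target lower, and 7 of the 10 genes higher, with Mdm2 added. Of the 10 genes, 5 were higher without T60303 and T61340, where Fas was lost, and 5 when at least 10 counts were required in every library, where Eda2r was not tested. Leaving out 1 mouse at a time kept the number of higher genes among the 10 at 6 and gave 1 to 2 lower, with Gadd45a added without WT T_69523, and 4020 to 4265 genes higher and 3759 to 4098 lower in all. Log2 fold changes that turned sign belonged to genes that were not called. They were Bax with library size alone (0.0125), Trp63 in batch B alone (0.0871), Trp73 with library size alone (0.0369), in batch B alone (0.282), without T60303 and T61340 (0.0856) and without 1 mouse (-0.172 to 0.129), and Ppm1d with library size alone (0.0534), in batch A alone (0.00551) and without 1 mouse (-0.0456 to 0.0198). The cause was not tested. Cdkn1a, Bbc3, Ccng1 and Phlda3 kept their direction and call in every alternative run, as did Eda2r wherever it was tested. Low counts limit the precision of Eda2r and Fas.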
